A study of Homo sapiens with 2 samples.

Results

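GPAT3, CYB5R2, TM6SF2 and STARD4 are 4 genes that encode enzymes and carriers of lipids, and they were followed in UACC62 cells, an established human melanoma line, after depletion of FOSL1. FOSL1, a relative of FOS, joins a JUN protein to make the DNA-binding dimer AP-1. The FOSL1 siRNA condition was 1 culture that received siRNA specific for FOSL1, and the control siRNA condition was 1 culture that received a non-targeting siRNA. Both were UACC62 cells grown in DMEM with fetal calf serum and harvested on day 3, and total RNA of each was measured on 1 whole-transcript Affymetrix array. The 4 genes were selected by symbol, with knowledge of their differences between these 2 arrays. Each of the 4 has 1 probe set among the 16098 probe sets with a gene symbol, which stand for 14884 genes. Another 37329 of the 53427 probe sets have no symbol in the table used and were not examined for these genes.

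Because the 4 genes were chosen on the same contrast that is described here, their differences are a description and carry no test. With 1 array per condition there is no replicate of any value, no p-value can be given, and the spread between cultures is unknown. The number of siRNA sequences used is not given in the labels, and effects of FOSL1 depletion and off-target effects cannot be told apart. In total RNA of a culture, fewer cells of a type and less RNA per cell cannot be told apart either.

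Cells build triacylglycerol and most phospholipids from glycerol 3-phosphate, which is first acylated to lysophosphatidic acid. GPAT3 is an enzyme of the endoplasmic reticulum that carries out this first acylation. Desaturation of fatty acids and several steps of sterol synthesis take electrons from cytochrome b5, which receives them from NADH through cytochrome b5 reductases, the family to which CYB5R2 belongs. TM6SF2 is a multi-pass membrane protein of the endoplasmic reticulum and Golgi, known mainly from liver and intestine, where it acts in the loading of lipid onto secreted lipoproteins. STARD4 is a small soluble protein with a START domain that carries cholesterol between membranes, and its gene is a known target of the sterol-regulated factor SREBP-2.

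The sequences before the annotated starts of the 4 genes are shown because AP-1 and SREBP factors bind DNA by short motifs, so that a reader can see what lies in front of each gene. They are RefSeq sequences of build GRCh38.p14, each 250 bases long and ending 1 base before an annotated transcript start. Where a gene has several windows, the one nearest the outer end of the gene is printed; for GPAT3 its start still lies 520 bases inside the span of the gene. Capitals mark matches, on either strand, to the AP-1 motif TGANTCA, the cAMP response element TGACGTCA, the sterol regulatory element TCACNCCAC, the CCAAT box CCAAT, the GC box GGGCGG and the E box CACGTG. The matches in these windows do not overlap each other. The GPAT3 window is chr4:83535857-83536106 (plus strand), that of CYB5R2 chr11:7674268-7674517 (minus strand), that of TM6SF2 chr19:19273302-19273551 (minus strand) and that of STARD4 chr5:111512536-111512785 (minus strand).
GPAT3: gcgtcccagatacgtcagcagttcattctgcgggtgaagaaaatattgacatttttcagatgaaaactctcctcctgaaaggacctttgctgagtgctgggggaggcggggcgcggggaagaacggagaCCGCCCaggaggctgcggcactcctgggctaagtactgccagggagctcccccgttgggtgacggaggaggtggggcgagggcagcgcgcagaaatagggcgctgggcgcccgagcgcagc
CYB5R2: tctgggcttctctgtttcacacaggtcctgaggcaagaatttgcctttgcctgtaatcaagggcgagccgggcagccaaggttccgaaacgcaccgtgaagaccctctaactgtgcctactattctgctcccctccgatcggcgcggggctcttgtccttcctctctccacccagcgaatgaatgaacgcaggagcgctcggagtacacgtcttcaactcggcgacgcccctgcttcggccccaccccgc
TM6SF2: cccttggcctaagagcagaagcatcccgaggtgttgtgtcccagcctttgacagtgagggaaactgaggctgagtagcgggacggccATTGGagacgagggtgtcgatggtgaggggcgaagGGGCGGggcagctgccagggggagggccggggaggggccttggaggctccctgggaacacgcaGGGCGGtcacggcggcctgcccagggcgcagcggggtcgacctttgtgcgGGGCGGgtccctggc
STARD4: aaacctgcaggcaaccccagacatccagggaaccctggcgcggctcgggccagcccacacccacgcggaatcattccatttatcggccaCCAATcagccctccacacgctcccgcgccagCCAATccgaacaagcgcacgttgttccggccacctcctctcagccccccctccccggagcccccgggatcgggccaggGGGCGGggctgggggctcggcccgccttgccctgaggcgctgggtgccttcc

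STARD4 has 2 CCAAT boxes, whose first bases lie 161 and 130 bases before the start, and a GC box at 52 bases. TM6SF2 has a CCAAT box on the opposite strand at 163 bases and 3 GC boxes, at 128, 65 and 15 bases. GPAT3 has 1 GC box, on the opposite strand at 121 bases. The CYB5R2 window shown holds no match, while a window at another start of that gene holds 3 GC boxes and a further one holds 1. None of the 7 windows of the 4 genes holds the AP-1, cAMP, sterol or E box letters, and this says only that these letters are not in these windows. For scale, the AP-1 letters are found in 6.57% of the 35116 windows of all genes, the cAMP element in 1.65%, the sterol element in 0.883%, the E box in 6.34%, the CCAAT box in 32.0% and the GC box in 42.6%. Shares were also counted per gene over any of its windows. The 5996 genes counted have a window and a mean log2 intensity that reached the median of all named genes. The shares of these genes were 5.62% for AP-1, 3.59% for the cAMP element and 1.28% for the sterol element. They were 11.7% for the E box, 41.0% for the CCAAT box and 75.9% for the GC box. The GC content of the 4 windows shown was 62.4% for GPAT3, 60.0% for CYB5R2, 69.6% for TM6SF2 and 70.4% for STARD4, against a median of 58% over all windows.

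FOSL1 itself had a log2 intensity of 10.38 with FOSL1 siRNA and 11.90 with control siRNA. The targeted transcript was thus 2.88-fold lower in the array labelled with its siRNA. The 2 arrays had almost the same distribution of values, with medians of 6.885 on both, so a change of total RNA per cell would not show on this scale. Of the melanocyte markers listed, 9 of 10 had a named probe set and 6 passed the filter on dim genes, which was a mean log2 value of 8.02, the median of named genes. The neural crest protein S100B was at 13.09 with FOSL1 siRNA and 13.18 with control siRNA, and the melanosome enzyme TYR was at 10.98 with FOSL1 siRNA and 11.31 with control siRNA. MITF, the master transcription factor of melanocytes, was at 9.09 with FOSL1 siRNA and 8.73 with control siRNA, and the melanosome protein MLANA was at 9.69 with FOSL1 siRNA and 9.57 with control siRNA. Of the 6, 2 were above 0 and 4 below. The defining melanosome genes PMEL and TYRP1 were under that filter on both arrays. Of 7 hepatocyte markers with a named probe set 1 passed the filter, TTR, and of 3 adipocyte and 3 enterocyte markers none did, with highest log2 values of 7.29 and 7.63 on either array. Of 7 epithelial markers the keratin KRT18 passed, at 10.85 with FOSL1 siRNA and 11.12 with control siRNA for the brighter of its 2 probe sets. The keratin KRT8 did not pass, at 7.71 with FOSL1 siRNA and 8.07 with control siRNA. Of 5 stromal and leukocyte markers 2 passed, the proteoglycan LUM, at 11.53 with FOSL1 siRNA and 11.05 with control siRNA, and the lysosomal protein CD68, at 10.17 with FOSL1 siRNA and 10.79 with control siRNA. Their part in the results was not tested.

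GPAT3, the acyltransferase (Entrez gene 84803, probe set 16968447, chromosome 4), had a log2 intensity of 8.54 with FOSL1 siRNA and 9.22 with control siRNA. It was lower in the FOSL1 siRNA array, and both values lay above the filter on dim genes. The log2 difference was -0.68, a level 1.60-fold lower.

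CYB5R2, the reductase (Entrez gene 51700, probe set 16735259, chromosome 11), had a log2 intensity of 7.94 with FOSL1 siRNA and 8.78 with control siRNA. This was the largest difference of the 4 genes, at -0.84, a level 1.79-fold lower. In the FOSL1 siRNA array the probe set lay under the filter on dim genes. The deposited values give no background level to set it against.

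TM6SF2, the membrane protein (Entrez gene 53345, probe set 16870600, chromosome 19), had a log2 intensity of 7.80 with FOSL1 siRNA and 8.47 with control siRNA. The log2 difference was -0.66, a level 1.59-fold lower. Its mean of 8.13 was the closest of the 4 to the filter, and like CYB5R2 it was under the filter in the FOSL1 siRNA array.

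STARD4, the sterol carrier (Entrez gene 134429, probe set 16998810, chromosome 5), had a log2 intensity of 9.04 with FOSL1 siRNA and 8.46 with control siRNA. It was the only one of the 4 that was higher in the FOSL1 siRNA array. The log2 difference was 0.582, a level 1.497-fold higher, which is just short of the 1.5-fold mark at 0.585.

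**Figure D1:**
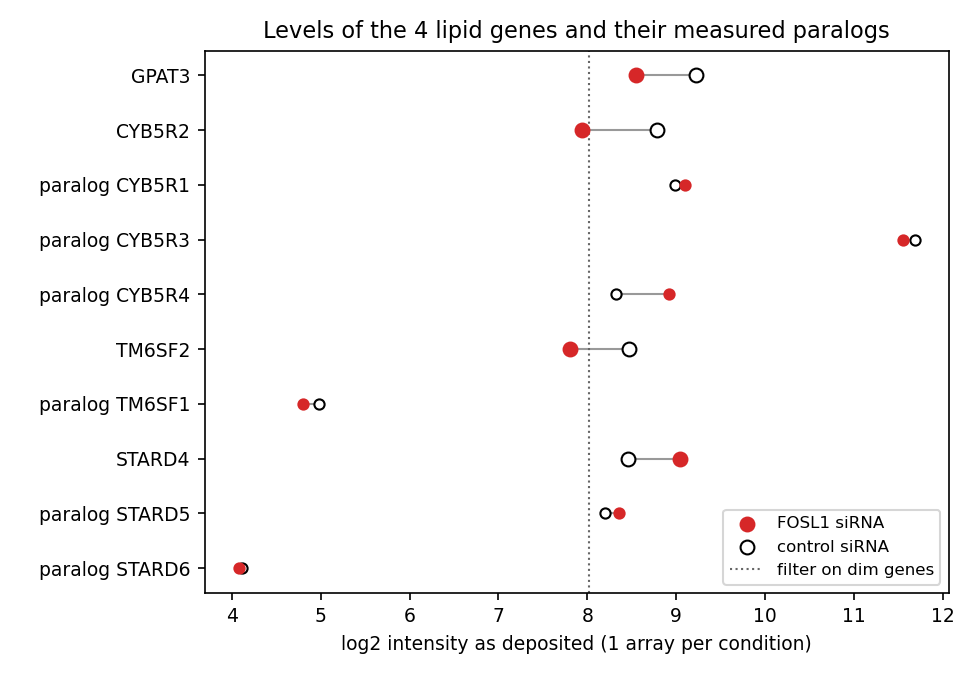
Log2 intensity (x axis) of the 4 genes and of each listed paralog with a named probe set (y axis); filled red points are the FOSL1 siRNA array, open points the control siRNA array, 1 array each, and the dotted line is the filter on dim genes at 8.02. GPAT3, CYB5R2 and TM6SF2 lie to the left with FOSL1 siRNA, and STARD4 and CYB5R4 to the right.

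All 4 genes passed the filter on dim genes, by their mean over both arrays, as did 7442 of the 14884 named genes. Of the 7442, 0.766% were at least 1.5-fold lower and 1.13% at least 1.5-fold higher with FOSL1 siRNA, and 50.1% were below 0. Of the 4, 3 were at least 1.5-fold lower and 0 at least 1.5-fold higher, counts that the choice of genes fixed and from which nothing is read. Counted from the lowest difference among the 7442 genes, CYB5R2 was at rank 6, GPAT3 at rank 22 and TM6SF2 at rank 27. STARD4 was at rank 86 from the highest.

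The 4 genes share a middling brightness. Between mean log2 values of 8 and 9, where all 4 lie, there were 2639 named genes, whose differences had a median of -0.01. Their 1st and 99th percentiles were -0.59 and 0.66, and their 5th and 95th were -0.40 and 0.47, while the 5th and 95th of 1580 brighter genes, between 10 and 11, were -0.29 and 0.32. GPAT3, CYB5R2 and TM6SF2 lay below the 1st percentile of this class, and STARD4 lay between the 95th and the 99th. The choice of the 4 with these differences known favoured such places, and nothing is read from them. In this class 1.10% of genes were at least 1.5-fold lower and 2.01% at least 1.5-fold higher. For 213 genes with several probe sets past the filter, the brightest pair of each gene was compared. The SD between probe sets of a gene, taken for the log2 difference of a single probe set, was 0.169 log2 units. None of the 4 has a second named probe set, so no such check within the gene exists for them.

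**Figure D2:**
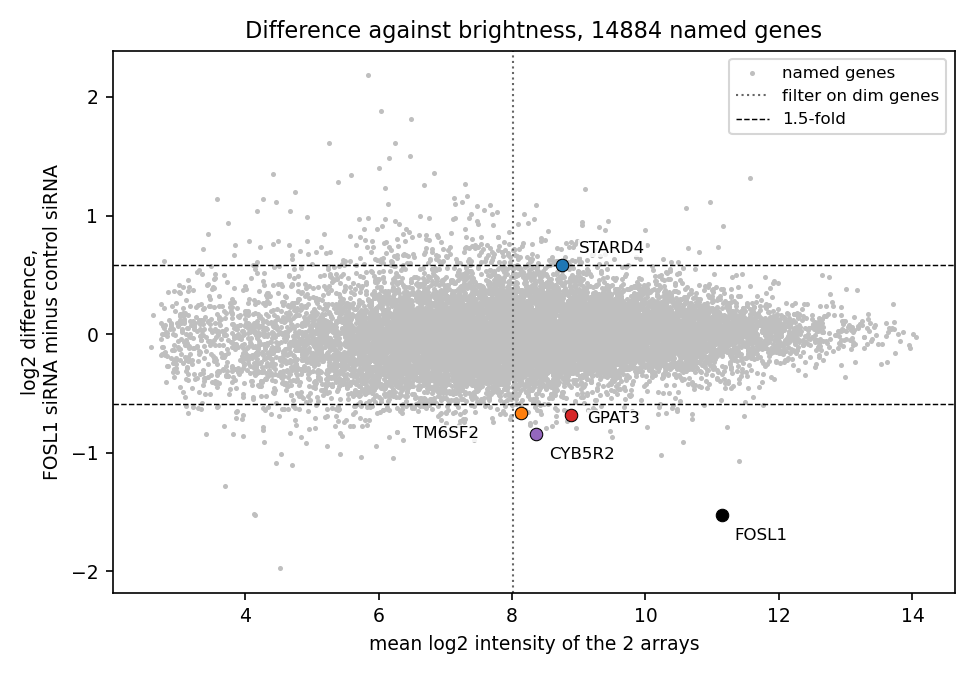
Log2 difference, FOSL1 siRNA minus control siRNA (y axis), against mean log2 intensity of the 2 arrays (x axis) for 14884 named genes in grey, with the 4 lipid genes coloured and FOSL1 in black. The dashed lines mark 1.5-fold and the dotted line the filter on dim genes; CYB5R2, GPAT3 and TM6SF2 lie under the lower dashed line and STARD4 touches the upper one.

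Short genes had lower differences than long genes on these arrays, and CYB5R2 and TM6SF2 are short. Their spans in RefSeq are 9.17 kb for CYB5R2 and 8.94 kb for TM6SF2, with 16.5 kb for STARD4 and 70.3 kb for GPAT3. The 1845 genes under 10 kb that passed the filter had a median difference of -0.11 and a 1st percentile of -0.66, and 1.90% of them were at least 1.5-fold lower. The 1166 genes of 50 to 100 kb had a median of 0.06 and a 1st percentile of -0.41, and 0.257% of them were at least 1.5-fold lower. With a loess trend on span removed, the differences were -0.76 for CYB5R2 and -0.71 for GPAT3. The difference of TM6SF2 was then -0.585, at the 1.5-fold mark, and it was at rank 35 from the lowest. STARD4 was then at 0.62, past the 1.5-fold mark.

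**Figure D3:**
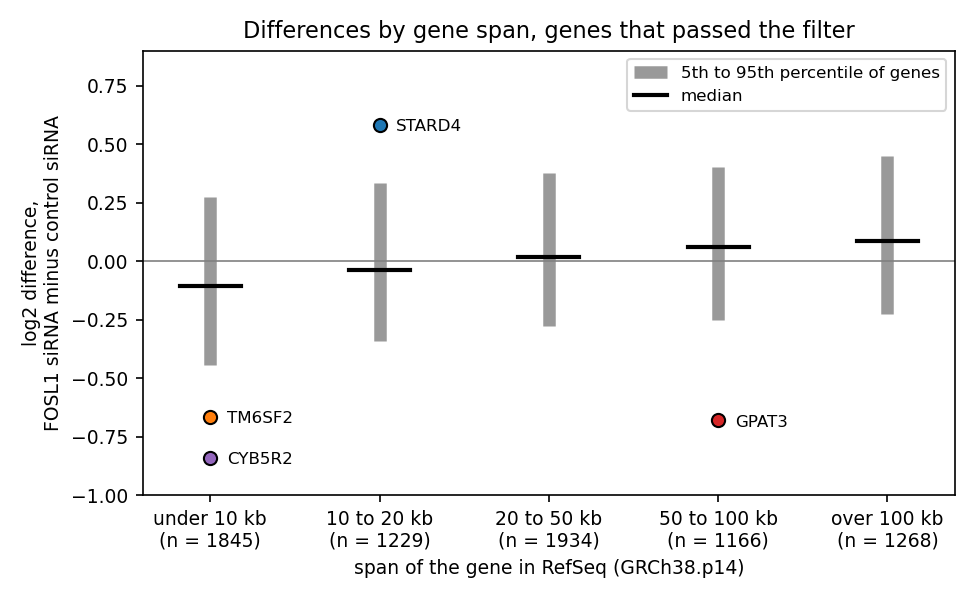
Log2 difference, FOSL1 siRNA minus control siRNA (y axis), of the genes that passed the filter, by the span of the gene (x axis); grey bars run between the 5th and 95th percentiles and black lines are medians. The medians run between -0.11 for genes under 10 kb and 0.09 for genes over 100 kb. Each of the 4 genes lies outside the bar of its own class, which their choice with these differences known favoured.

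Of the listed relatives of the 4 genes that had a named probe set, CYB5R4 differed most. CYB5R4, a reductase that joins a cytochrome b5 domain and a reductase domain in 1 protein, had a log2 intensity of 8.92 with FOSL1 siRNA and 8.32 with control siRNA. Its difference of 0.59, a level 1.51-fold higher, was opposite in sign to that of CYB5R2, and it was 0.55, under the 1.5-fold mark, with the span trend removed. CYB5R3, the reductase whose loss causes inherited methaemoglobinaemia, was at 11.55 with FOSL1 siRNA and 11.69 with control siRNA, a difference of -0.13. CYB5R1 had a difference of 0.11. The reductases thus lay on both sides of 0, and whether CYB5R2 differs from its relatives was not tested.

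Of the paralogs of STARD4, STARD5 had a log2 intensity of 8.36 with FOSL1 siRNA and 8.20 with control siRNA, a difference of 0.16. STARD6 was a dim probe set, at 4.08 with FOSL1 siRNA and 4.11 with control siRNA, and its difference of -0.04 had the other sign after quantile normalization and with a trend on brightness removed. TM6SF1, the paralog of TM6SF2, was also dim, at 4.80 with FOSL1 siRNA and 4.98 with control siRNA. GPAT4, the closest relative of GPAT3, and the acyltransferases AGPAT1 and AGPAT2 were not analysed here.

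Among genes that passed the filter, no other listed gene of lipid metabolism had a difference as large as those of GPAT3, CYB5R2 or TM6SF2. The 4 were chosen with their differences known, which favoured this order, and nothing is read from it. Under the filter, HACD4 had a difference of 0.73. The 10 lists around the 4 genes comprised 228 genes. A named probe set was found for 166, and 122 passed the filter. Without the 4, 118 genes remained, and of these 1 was at least 1.5-fold higher (CYB5R4) and 0 were at least 1.5-fold lower. Of the 118, 50 were above 0 and 68 below, with a median of -0.04, where all 7442 genes had a median of -0.00. As 1 array stood for each condition, no test was run on these counts or on those of single lists, which are to be read against the 50.1% of all genes that were below 0.

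Apart from GPAT3, genes of the glycerolipid pathway had small differences on both sides of 0. Of 21 genes listed for acylation of glycerol 3-phosphate and lysophosphatidic acid, lipins and diacylglycerol acyltransferases, 10 passed the filter. GPAT3 was the 1 gene at least 1.5-fold lower, and without it 6 of 9 were below 0, with a median of -0.11. PLPP2, a lipid phosphate phosphatase, had a difference of -0.27, and LCLAT1, an acyltransferase that acts on lysocardiolipin, 0.23. DGAT1 and DGAT2, which make triacylglycerol in the last step and were named after their values were seen, had differences of -0.13 and -0.20.

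In phospholipid synthesis and remodelling, 21 of 29 listed genes passed the filter, 15 of them below 0, with a median of -0.09 and none past 1.5-fold. ETNK2, an ethanolamine kinase, had a difference of -0.36, but a second and dimmer probe set gave 0.05. PTDSS2, a phosphatidylserine synthase, had -0.33, and MBOAT7, which puts arachidonate into phosphatidylinositol, -0.32.

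The list of cytochrome b5 and its reductases and the list of fatty acid enzymes as a whole had medians near 0. Of the 9 genes of cytochrome b5 and its reductases 8 passed the filter, and without CYB5R2 3 were above 0 and 4 below, with a median of -0.01. CYB5A and CYB5B, the cytochrome b5 proteins of the endoplasmic reticulum and the outer mitochondrial membrane, had differences of -0.01 and -0.11 and were named after their values were seen. Of 31 genes of fatty acid synthesis, activation, elongation and desaturation 19 passed, 12 of them below 0, with a median of -0.05 and none past 1.5-fold. FADS3, of the fatty acid desaturase family, had a log2 intensity of 9.94 with FOSL1 siRNA and 10.43 with control siRNA, a difference of -0.49. FADS2, the delta-6 desaturase, had a difference of -0.23, and ELOVL4, an elongase of very long chains, 0.37. The desaturases SCD, SCD5 and FADS1, named after their values were seen, had differences of -0.22, -0.05 and -0.003. Each listed desaturase was thus below 0, as were 50.1% of all genes that passed the filter, and no test was run on this. The differences of SCD5 and FADS1 were smaller than the SD between probe sets of a gene, 0.169. The value of SCD is that of the brighter of its 2 probe sets.

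No gene of cholesterol synthesis that passed the filter had a difference as large as that of STARD4, which was chosen with its difference known. Under the filter, HSD17B7 had a difference of 0.62. Of 21 genes of cholesterol synthesis 11 passed the filter, 6 above 0 and 5 below, with a median of 0.02 that was below 0 as a mean and with the mean of probe sets. SQLE, the squalene epoxidase, had a log2 intensity of 9.90 with FOSL1 siRNA and 9.67 with control siRNA, a difference of 0.23. HMGCS1, which makes the precursor of mevalonate, had a difference of 0.18, whereas EBP, a sterol isomerase, had -0.25 and MVK, the mevalonate kinase, -0.22.

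Of 23 genes of sterol sensing, uptake and export, 9 had a named probe set and 6 passed the filter, 4 of them below 0, with a median of -0.17. SREBF2, which encodes SREBP-2, had a log2 intensity of 9.55 with FOSL1 siRNA and 9.77 with control siRNA, a difference of -0.22. SREBF1, its relative with a larger role in fatty acid synthesis, had -0.24. INSIG1, an SREBP target that retains the SREBP complex in the endoplasmic reticulum, had a log2 intensity of 10.05 with FOSL1 siRNA and 10.26 with control siRNA, a difference of -0.22. INSIG1 and both SREBF genes were thus below 0, while STARD4, SQLE and HMGCS1 were above it. Other genes of both lists went the other way. In cholesterol synthesis 5 of 11 genes were below 0, EBP and MVK among them. In the sensing list 2 of 6 were above 0. INSIG2, under the filter and named after its value was seen, had a difference of 0.53.

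Carriers of lipids between membranes lay on both sides of 0. Of 15 genes of the START domain family 8 passed the filter, and without STARD4 4 were above 0 and 3 below, with a median of 0.14. DLC1, a RhoGAP with a START domain, had a difference of 0.36, and STARD3, which tethers late endosomes to the endoplasmic reticulum, had -0.20. Under a filter at the 75th percentile, which removes STARD4 and the other 3 genes chosen, 3 genes of the family remained, with a median of -0.13. Of 45 other lipid transfer genes 21 passed, 14 above 0 and 7 below, with a median of 0.02. VPS13C and VPS13A, bridge-like proteins that move lipids at membrane contacts, had differences of 0.42 each, and VPS13B had 0.30. These are long genes, of 208, 244 and 864 kb, and DLC1 spans 521 kb. With the span trend removed, VPS13C and VPS13A were at 0.37 each, VPS13B at 0.28 and DLC1 at 0.32. The 95th percentile of genes over 100 kb was 0.45.

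Listed relatives of TM6SF2 and genes of the processes it acts in had smaller differences than TM6SF2. This order was favoured by the choice of TM6SF2 with its difference known. Of the 5 genes of the TM6SF and EXPERA family 4 passed the filter, and beside TM6SF2 the largest differences were those of EBP, given above, and TMEM97, the sigma-2 receptor, at -0.09. Of 30 genes of lipoprotein assembly and lipid droplets 15 passed, 10 of them below 0, with a median of -0.17 and none past 1.5-fold. PLIN2, a coat protein of lipid droplets, had a log2 intensity of 8.08 with FOSL1 siRNA and 8.45 with control siRNA, a difference of -0.37. MGLL, the monoacylglycerol lipase, had -0.33, and ERLIN1, a cholesterol-binding protein of the endoplasmic reticulum, 0.35. APOB and MTTP, the core protein and the loading factor of the lipoproteins on which TM6SF2 acts in liver, were both dim. APOB had a log2 intensity of 6.38 with FOSL1 siRNA and 6.67 with control siRNA, and MTTP had 5.80 with FOSL1 siRNA and 5.46 with control siRNA; both were named after their values were seen.

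**Figure D4:**
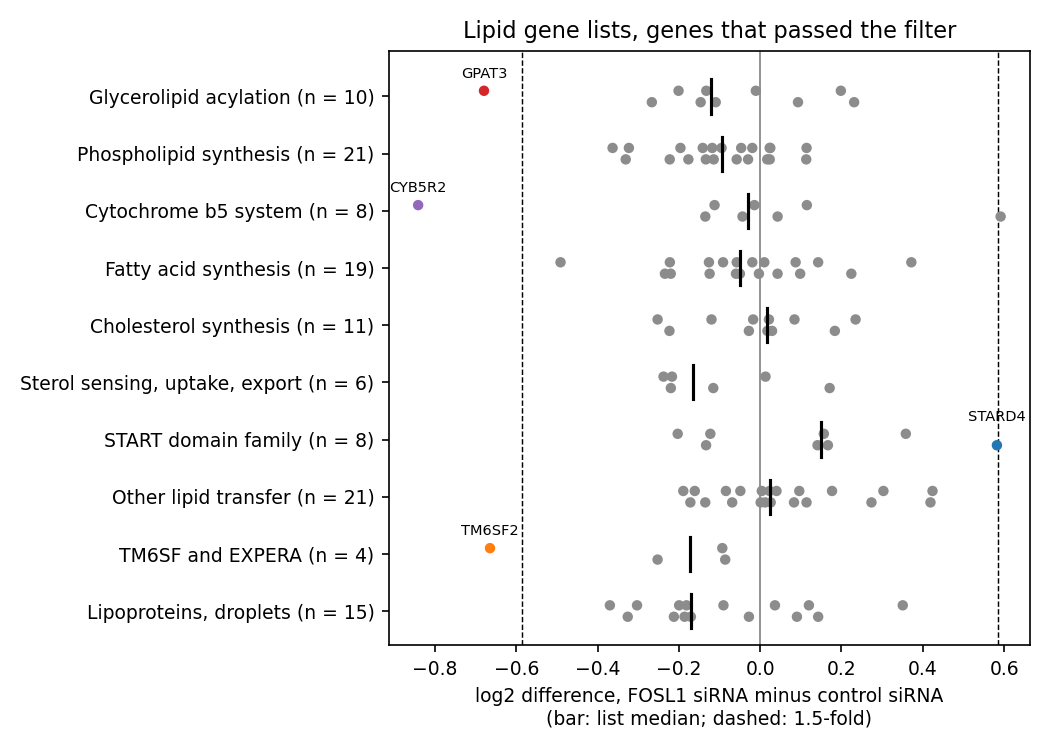
Log2 difference, FOSL1 siRNA minus control siRNA (x axis), of the genes that passed the filter in each of 10 lipid gene lists (y axis, n genes each); points are genes, offset vertically for visibility, black bars are list medians and dashed lines mark 1.5-fold. The 4 genes are coloured and named, and the point past the right dashed line in the cytochrome b5 list is CYB5R4.

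The genes whose pair of log2 values lay nearest to each of the 4, by Euclidean distance over the 2 arrays, were of mixed kinds. For GPAT3 they were KRTAP10-9, a keratin-associated protein gene, and MIR596, at distances of 0.0821 and 0.110 log2 units. For CYB5R2 they were COLQ, the collagen tail of acetylcholinesterase, and MIR4635, at 0.0736 and 0.142. For TM6SF2 they were the microRNA genes MIR4515 and MIR4294, at 0.0384 and 0.0646. For STARD4 they were NBEAL1 and CSPP1, the second a protein of centrosomes and cilia, at 0.0297 and 0.0325. The microRNA genes span 0.076 to 0.081 kb, KRTAP10-9 1.29 kb and COLQ 71.6 kb, whereas NBEAL1 and CSPP1 span 211 and 132 kb. The part of gene span in these matches was not tested. None of these 8 genes is in the 10 lipid lists, and with 2 arrays a small distance says only that brightness and difference were alike.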

How the data were processed

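The deposited table gave each probe set a value on each array, read as log2 intensity because of its range (2.23 to 14.81). The labels do not state the log base, background correction, probe summary or array build. No detection call was used, so brightness stood in for signal over background, and 1 array per condition limits the precision. Gene symbols came from the platform's probe table and were matched by Entrez ID to RefSeq (GRCh38.p14), where 0 symbols differed. The brightest probe set stood for a gene. A gene passed the filter on dim genes if its mean over both arrays reached the median of all named genes.

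Differences were taken as FOSL1 siRNA minus control siRNA on the log2 scale, computed in Python 3.11.15 with pandas 2.3.3, and the steps were tested on simulated data. No p-value was computed. The 4 genes and the gene lists were chosen with earlier results of these data known, so no list supports them. The rule for named genes took the 4 genes, FOSL1, listed paralogs, from each list every gene past 1.5-fold or else the 3 largest differences, HMGCS1, SQLE and INSIG1, and the 2 genes nearest to each of the 4. Other genes were named after their values were seen. Alternatives were median centring, quantile normalization, removal of a loess trend on brightness or on gene span (statsmodels 0.14.6), the mean of probe sets, other filters and fold thresholds, and list means.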

Additional observations from a re-analysis of the deposited data

How the results depend on the processing

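No paired analysis was possible because each condition had 1 array, and no array could be left out. Over 5 alternatives each, all 20 values of GPAT3, CYB5R2, TM6SF2 and STARD4 kept their sign and moved by at most 0.0792 log2 units, less than the SD between probe sets of a gene. The mean of probe sets alters none of the 4 by construction, since each has 1 probe set. Median centring and quantile normalization also had little to change. Over all probe sets, the sorted arrays differed by at most 0.0301 log2 units at the same rank. Genes at least 1.5-fold lower and higher numbered 213 and 284 with no filter on dim genes, 23 and 15 under a filter at the 75th percentile, as more or fewer genes entered, and 3 and 6 at 2-fold and 0 and 0 at 3-fold. With the span trend removed, 35 were lower, against 57 without that step, and 92 were higher, against 84. The cause was not tested. Of 155 values of other named genes, 1 moved by more than that SD (ETNK2, -0.16 as a mean of 2 probe sets) and 2 changed sign, both of STARD6, a dim gene near 0. Of 80 list medians, 1 moved by more than the SD: the START domain family was at -0.13 under the filter at the 75th percentile, which left 3 genes and removes GPAT3, CYB5R2, TM6SF2 and STARD4. That median changed sign, as did that of cholesterol synthesis as a mean (-0.0062) and with the mean of probe sets (-0.0013).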

Other observations

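Genes next to the 4 on their chromosomes, in the RefSeq gene order of GRCh38.p14, were looked up after the values of the 4 were seen. Beside STARD4 on chromosome 5 lie CAMK4, a calcium- and calmodulin-dependent kinase, and WDR36, a protein of ribosome assembly. CAMK4 had log2 values of 8.94 with FOSL1 siRNA and 8.50 with control siRNA, a difference of 0.44, and WDR36 had 11.88 with FOSL1 siRNA and 11.59 with control siRNA, a difference of 0.28. The antisense RNA STARD4-AS1, whose gene span overlaps STARD4, was under the filter on dim genes at 7.50 with FOSL1 siRNA and 7.28 with control siRNA. Whether the probe set of STARD4 also takes up signal from this overlapping transcript was not tested. These 3 differences had the same sign as that of STARD4, as did 49.8% of all genes that passed the filter. CAMK4 and STARD4-AS1 are long genes, of 271 and 228 kb, and WDR36 spans 38.2 kb. Genes over 100 kb that passed the filter had a median difference of 0.09 and a 95th percentile of 0.45. The part of gene span in these values was not tested.

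Beside TM6SF2 on chromosome 19 lie HAPLN4 and NCAN, both genes of the brain extracellular matrix, and on the other side SUGP1 and MAU2. SUGP1, a splicing factor, had a log2 difference of -0.13, and MAU2, which loads cohesin onto chromatin, had -0.01. HAPLN4 and NCAN were under the filter on dim genes and had differences of -0.30 and -0.28. Of the genes next to CYB5R2, OVCH2 had a named probe set, a dim one, with a difference of 0.28 opposite in sign to CYB5R2. PPFIBP2, whose span overlaps CYB5R2, and the neighbours of GPAT3 were not analysed here.

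Of 44 listed lipid genes under the filter on dim genes, 3 were at least 1.5-fold higher with FOSL1 siRNA and 0 at least 1.5-fold lower. Of all 7442 dim named genes, 2.69% passed 1.5-fold upward and 2.10% downward, and no test was run. HACD4, of the dehydratase family of fatty acid elongation, had log2 values of 7.08 with FOSL1 siRNA and 6.35 with control siRNA. HSD17B7, a reductase of cholesterol synthesis, had 5.81 with FOSL1 siRNA and 5.19 with control siRNA. ACOT12, an acyl-CoA thioesterase with a START domain, had 6.78 with FOSL1 siRNA and 6.17 with control siRNA.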
